A study of Mus musculus with 24 samples.

Results

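The comparison sets knockout vascular smooth muscle cells that had been given PMCA4b against wild-type cells that never lost PMCA4. PMCA4, encoded by Atp2b4, is a plasma membrane pump that spends ATP on expelling calcium, and PMCA4b is a splice variant of it. In vascular smooth muscle, calcium sets contraction and also feeds into growth signalling through calmodulin and the phosphatase calcineurin. Smooth muscle cells in culture can leave the contractile state, make matrix and divide. The question was which genes still differed from wild type after PMCA4b had been put back, and which had a wild-type level.

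The members were chosen by their sample labels: the 5 arrays of PMCA4b cells and the 5 arrays of wild-type cells, 10 of the 24 arrays of the study. The PMCA4b cells carried the PMCA4 knockout and were electroporated with PMCA4b DNA. The other knockout groups were electroporated with vector A (5 arrays) or vector B (4 arrays), or were not electroporated (5 arrays). All cells were primary smooth muscle cells from the carotid artery of male C57bl6 mice, and all were serum-synchronized and then, after stimulation by serum and PDGF-BB, collected in late G1/S. The labels give no age, no number of animals or cultures and no difference between vectors A and B. Wild-type cells are not described as electroporated, so that in the comparison of PMCA4b with wild-type cells the handling and the restored pump cannot be told apart. P-values measure the spread between these arrays, which may be technical.

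RNA was measured on Illumina bead arrays with 25697 probes. Values are normalized log2 intensities, and a probe counts as detected on an array where its deposited detection p is under 0.01. Between 9496 and 9943 probes were detected on the PMCA4b arrays and between 9660 and 10011 on the wild-type arrays. After a filter on dim probes, 7675 genes were tested, each through 1 probe. The median SD between arrays was 0.119 in PMCA4b cells and 0.123 in wild-type cells (n = 5 each). A call means an adjusted p under 0.05 in limma, and a probe's level was not set against that of another probe. Where the dimmer group was undetected on all its arrays, a change is given as "at least" so many fold, measured from the lowest detected signal of each array, and where some of its arrays detected the gene their number is given. In RNA from whole cultures, fewer cells of a type and less RNA per cell cannot be told apart.

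The markers of smooth muscle were mostly absent. Of 10 defining markers, 7 (Myh11, Cnn1, Lmod1, Des, Myocd, Mylk and Synpo2) were undetected in both PMCA4b and wild-type cells, while Acta2 and Smtn were detected on every array of both. The summed linear intensity of the 10 markers ranged between 32716 and 39113 in PMCA4b cells and between 24031 and 28416 in wild-type cells. This sum mostly reflects Acta2, by far the brightest, at a mean log2 of 15.08 in PMCA4b cells and 14.56 in wild-type cells. Smtn and Tagln went the other way, at 9.82 against 10.42 and 6.54 against 8.50. Of 9 fibroblast markers on the array, 4 were detected on all PMCA4b arrays and 2 on all wild-type arrays, with sums of 7705 to 9379 in PMCA4b cells and 3127 to 3719 in wild-type cells. Different markers led these sums. Thy1 was the brightest in PMCA4b cells, at 12.59 against 9.43 in wild-type cells, and Pdgfra the brightest in wild-type cells, at 11.23 against 5.61 in PMCA4b cells. All 7 endothelial markers on the array were undetected in both groups. Of 6 epithelial markers, 2 were detected on all PMCA4b arrays and 0 on all wild-type arrays. The part of these markers in the results below was not tested.

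The targeted gene did not separate the groups at RNA level. Atp2b4 read 7.27, 6.86, 6.74, 6.88 and 5.88 in PMCA4b cells, against 6.76, 6.79, 7.13, 6.80 and 6.55 in wild-type cells. The groups overlapped, and the widest value was the fifth PMCA4b array. The difference was -0.08 on the log2 scale (95% interval -0.44 to 0.27, adjusted p = 0.69, exact two-sided permutation p = 0.833). Knockout cells without electroporation averaged 6.84 ± 0.18 (SD, n = 5), so this probe did not distinguish knockout from wild type either. The other 2 Atp2b4 probes were undetected on all 24 arrays. Neither the place of the probes relative to the deletion nor the species of the returned DNA is given, so these values do not check the labels.

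Among the other pumps of the family, Atp2b1, the widely expressed PMCA1, rose. Its values were 9.35, 9.34, 9.58, 9.50 and 9.43 in PMCA4b cells, against 8.48, 8.40, 8.54, 8.39 and 8.59 in wild-type cells. The groups did not overlap, and the 1.94-fold difference had an adjusted p of 4.5e-12 and an exact permutation p of 0.00794, the smallest 5 against 5 arrays allow. Unmanipulated knockout cells lay between them, at 8.97 ± 0.13 (SD, n = 5), and both vector groups lay above PMCA4b cells, at 10.10 ± 0.11 with vector A (SD, n = 5) and 9.97 ± 0.036 with vector B (SD, n = 4). The probes of Atp2b2 and Atp2b3, the pumps best known from nerve cells, were undetected on all arrays.

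Over all genes, PMCA4b cells were further from wild type than unmanipulated knockout cells were. Of 7675 genes, 5301 (69.1%) were called between PMCA4b and wild-type cells, 2609 higher (34%) and 2692 lower (35.1%). The counts called higher or lower in each gene list below stand beside these 34% and 35.1%. At least 2-fold changes numbered 909 (11.8%), with 398 higher (5.19%) and 511 lower (6.66%). The 95% interval of the difference lay within 1.5-fold in 4415 genes (57.5%), and 2177 of these (28.4% of all genes) were called. Calls of at least 1.5-fold numbered 2113 (27.5%), 950 higher (12.4%) and 1163 lower (15.2%), and 136 genes (1.77%) were neither called nor within 1.5-fold. The arrays of the groups did not overlap in 4058 called genes (52.9%). The root-mean-square log2 distance was 0.814 between PMCA4b and wild-type cells, 0.607 between knockout and wild-type cells and 0.764 between PMCA4b and knockout cells. With vector alone, the distance to wild type was 0.986 for vector A and 0.886 for vector B. These comparisons share the wild-type arrays.

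**Figure D1:**
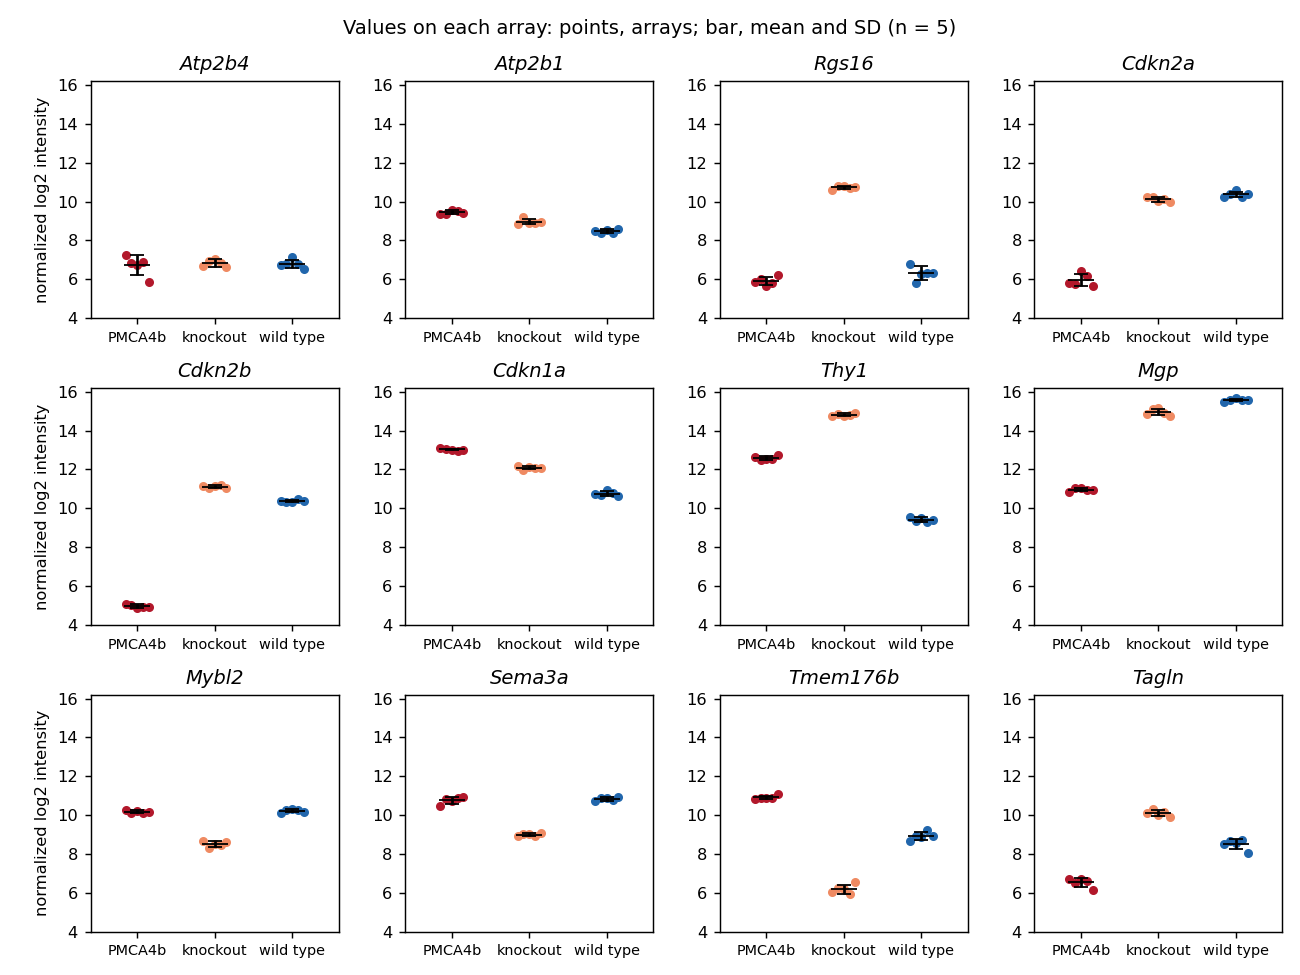
Normalized log2 intensity (vertical axis) of 12 genes on each array of PMCA4b, unmanipulated knockout and wild-type cells (horizontal axis). Points are arrays and bars the mean and SD (n = 5). Cdkn2a, Cdkn2b and Mgp are low in PMCA4b cells alone among the 3 groups, Mybl2 and Sema3a overlap with wild type, and Atp2b4 overlaps in all groups.

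The 10 largest log2 gains over wild type included Anxa8, Upk1b and Ptprd. In 7 of the 10 the gene was undetected in wild-type cells, so that their order among themselves was not measured. Anxa8, a membrane-binding annexin, read 12.10, 12.06, 12.18, 12.05 and 11.98 in PMCA4b cells, against 5.06, 4.86, 4.80, 4.77 and 4.92 in wild-type cells, where it was undetected. It was at least 50.8-fold higher (adjusted p = 1.9e-30). Upk1b, a tetraspanin of the urothelial plaque, had values of 10.60, 10.35, 10.69, 10.73 and 10.87 in PMCA4b cells, against 4.66, 4.85, 4.80, 4.75 and 4.87 in wild-type cells, and was at least 18.9-fold higher. Ptprd, a receptor tyrosine phosphatase, was at least 26.2-fold higher. All 3 were detected on every PMCA4b array and on 0 wild-type arrays. Psca, a small surface antigen, averaged 11.78 ± 0.085 in PMCA4b cells, against 5.99 ± 0.28 in wild-type cells (SD, n = 5), of which 1 array detected it. Aldh3a1, an aldehyde dehydrogenase, averaged 11.74 ± 0.081 in PMCA4b cells, against 6.03 ± 0.19 in wild-type cells (SD, n = 5), where it was undetected, and was at least 40.4-fold higher. The collagenase Mmp13 was at least 21.7-fold higher, the matrix protein Dpt at least 11.3-fold and the decoy receptor of RANKL, Tnfrsf11b, at least 18.3-fold. The remaining genes of the 10 largest gains were the carboxylesterase Ces2g, with a difference of 5.24 on the log2 scale and detection on 2 wild-type arrays, and the hexosamine pathway enzyme Gfpt2, with 4.62 and detection on 1.

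The 10 largest log2 losses included Dkk3, Pdgfra and Mgp. In 8 of the 10 the gene was undetected in PMCA4b cells, so that their order was not measured either. Dkk3, a secreted glycoprotein of the Dickkopf family, read 4.89, 4.78, 4.81, 4.74 and 4.80 in PMCA4b cells, against 13.39, 13.55, 13.71, 13.54 and 13.63 in wild-type cells. It was undetected in PMCA4b cells and at least 135.2-fold lower (adjusted p = 5.3e-31). Pdgfra, a PDGF receptor, read 5.63, 5.33, 5.67, 5.66 and 5.77 in PMCA4b cells, against 11.25, 11.42, 11.27, 11.10 and 11.10 in wild-type cells, at least 26.7-fold lower. For both genes the unmanipulated knockout stood near wild type, with means of 13.08 for Dkk3 and 10.76 for Pdgfra. Mgp, an inhibitor of arterial calcification, was detected in both groups, with 10.86, 11.06, 11.05, 10.94 and 10.92 in PMCA4b cells, against 15.46, 15.58, 15.66, 15.58 and 15.58 in wild-type cells. That 24.3-fold loss (adjusted p = 1.9e-25) compares with a knockout mean of 14.95. The calcineurin inhibitor Rcan2, detected on 1 PMCA4b array, differed by -5.55. The others were Cdkn2b, the transcription factors Tfap2b and Irx2, the thrombospondin Thbs2, the steroid-converting enzyme Akr1c18 and the neurotrophic factor Gdnf, all undetected in PMCA4b cells. The smallest bound among these was at least 8.25-fold, for Irx2, and the highest at least 17.4-fold, for Thbs2.

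Detection in 1 group alone was recorded for 139 genes in PMCA4b cells (1.81%) and for 189 in wild-type cells (2.46%), counting genes detected on all 5 arrays of one group and on 0 of the other.

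The genes that differed in the knockout were followed next. A gene is called knockout-different here if unmanipulated knockout and wild-type cells differed at least 2-fold with a call, which held for 510 of 7675 genes (6.64%), 318 higher (4.14%) and 192 lower (2.5%) in the knockout. Just inside that limit lay Notch4 at 1.001 and Gfod2 at -1.002, and just outside Prxl2a at 0.996 and Heatr5a at -0.996 (log2). After the return, a gene stayed if PMCA4b cells differed from wild type with a call, in the knockout's direction and at least 1.5-fold. It reached wild type if the 95% interval lay within 1.5-fold of it, and crossed if the call was at least 1.5-fold in the opposite direction. Any other gene was left undecided.

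Of the 510, 302 (59.2%) stayed, 122 (23.9%) reached wild type, 40 (7.84%) crossed and 46 (9.02%) were undecided. Among the other 7165 genes, 1771 (24.7%) differed from wild type by at least 1.5-fold with a call in either direction and 4293 (59.9%) lay within it. Genes that were higher in the knockout stayed in 162 of 318 (50.9%) and reached wild type in 93 (29.2%). Genes that were lower in the knockout stayed in 140 of 192 (72.9%) and reached wild type in 29 (15.1%). Of those that stayed, 177 lay further from wild type in PMCA4b cells than in the knockout and 125 nearer. Because both differences use the same wild-type arrays, an error in those arrays moves a gene in both.

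The same counts were made for the vector groups. The deposited columns come in 3 sets of 8, and all 5 vector A arrays lie in the third set, which holds 1 wild-type and 1 PMCA4b array and no vector B array. The part of the column set in the vector A values was not tested. Of the 302 genes that stayed with PMCA4b, 248 also stayed with vector A, 257 with vector B and 237 with both. Over all genes, at least 1.5-fold calls against wild type in either direction made up 41.2% with vector A and 34% with vector B, while a gene that stayed had to keep the knockout's direction. Of the 122 that reached wild type with PMCA4b, 32 lay within 1.5-fold of wild type with vector A, 38 with vector B and 22 with both, while 57 stayed with both vectors. Over all genes, 44.1% lay within 1.5-fold of wild type with vector A and 49.7% with vector B.

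**Figure D2:**
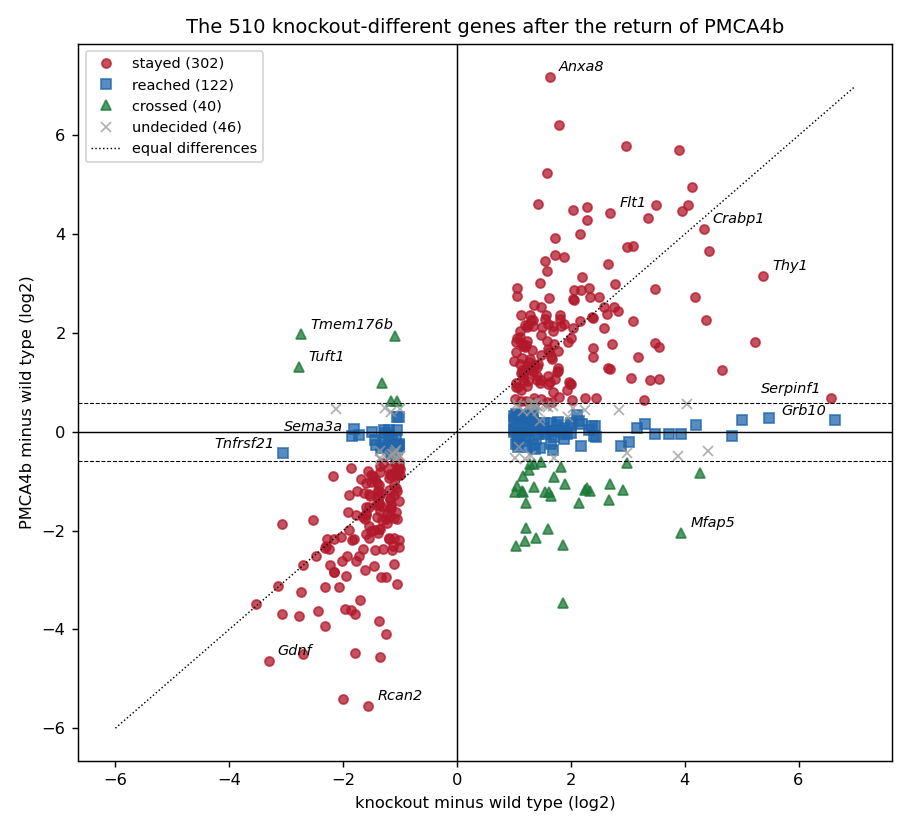
Difference from wild type on the log2 scale of the 510 knockout-different genes, in unmanipulated knockout cells (horizontal axis) and in PMCA4b cells (vertical axis), each point a gene and each symbol a class. Dashed lines mark 1.5-fold and the dotted line equal differences. The 302 genes that stayed lie in the lower left and upper right, on both sides of the dotted line, and the 122 that reached wild type lie along 0.

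Among the genes that were high in the knockout and stayed high, Thy1 and Serpinf1 had wide knockout differences but different remainders. Thy1, a surface glycoprotein of fibroblasts, read 12.65, 12.47, 12.55, 12.52 and 12.74 in PMCA4b cells, against 9.58, 9.35, 9.51, 9.30 and 9.40 in wild-type cells. It remained 8.94-fold higher (adjusted p = 5.2e-23), with a knockout mean of 14.81. Crabp1, which binds retinoic acid, read 10.38, 10.28, 10.44, 10.36 and 10.22 in PMCA4b cells, against 5.70, 6.16, 6.55, 6.31 and 6.39 in wild-type cells, where 2 arrays detected it, and had a knockout mean of 10.56. Serpinf1, the secreted protein PEDF, came most of the way, with 7.11, 7.25, 6.73, 6.25 and 6.58 in PMCA4b cells, against 6.44, 6.25, 5.80, 5.88 and 6.17 in wild-type cells. It was detected on 4 PMCA4b arrays and 1 wild-type array. The groups overlapped for Serpinf1, the knockout averaged 12.67, and the remaining difference was 0.68 (adjusted p = 0.00013). Dcn, the proteoglycan decorin, was undetected in wild-type cells and averaged 8.35 ± 0.12 in PMCA4b cells (SD, n = 5) and 9.81 in the knockout. The actin-severing protein Gsn, the surface protein Ly6c1 and the enzyme Renbp also stayed. None of these was detected in wild-type cells, so that Gsn was at least 1.42-fold higher, Ly6c1 at least 5.12-fold and Renbp at least 2.27-fold. The small heat shock protein Hspb7 was 2.38-fold higher, with detection on 2 wild-type arrays.

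Of the 14 measured genes of the fibroblast and adventitial list, 8 were higher and 2 lower than in wild type, with a median difference of 0.58 (2.275 over the members detected on all arrays of PMCA4b or of wild-type cells). In the unmanipulated knockout 11 were higher, 1 was lower and the median was 4.03, where 26.6% of all genes were higher than in wild type and 31.1% lower. The median over all genes tested was 0.01 with PMCA4b and -0.04 in the knockout. Those that stayed were Cd34, Dcn, Dpt, Gsn, Ly6c1, Serpinf1 and Thy1. Pdpn, a mucin-like surface protein, reached wild type, Mfap5, a protein of elastic microfibrils, crossed, and Pdgfra was lower as described above.

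Genes that were low in the knockout and stayed low included Gdnf, with 5.11, 4.68, 5.02, 5.10 and 4.97 in PMCA4b cells, against 9.77, 9.56, 9.71, 9.46 and 9.54 in wild-type cells. It was undetected in PMCA4b cells and at least 8.69-fold lower, with a knockout mean of 6.30. Inmt, a methyltransferase, was at least 3.50-fold lower and Gstt1, a glutathione transferase, at least 8.74-fold lower. Gvin1, an interferon-induced GTPase, averaged 5.66 in PMCA4b cells and 5.64 in the knockout, against 8.78 in wild-type cells. The homeobox factor Dlx1 averaged 8.78 ± 0.086 in PMCA4b cells, against 10.65 ± 0.069 in wild-type cells (SD, n = 5). Undetected in PMCA4b cells were also Plac8, at least 8.69-fold lower, the mitochondrial carrier gene Slc25a45, at least 5.59-fold lower, and the adhesion protein gene Tenm3, at least 3.54-fold lower.

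Of the 122 genes at a wild-type level, 60 were detected on all arrays of both groups and 50 were undetected in both. For the undetected genes, equality means that neither group rose above background. Grb10, an adaptor that binds the insulin and IGF receptors, was among those that were high in the knockout, with a knockout mean of 12.10. It read 5.54, 5.69, 5.90, 5.66 and 5.69 in PMCA4b cells, against 5.35, 5.50, 5.99, 5.21 and 5.28 in wild-type cells, undetected in both. Its difference of 0.23 had an adjusted p of 0.086, and without the third wild-type array 0.36 and 0.00197. Igfbp6, Pdpn, Lmcd1, Rasgrf1, Casp1 and Tac1 were likewise undetected in both groups, with differences between -0.08 and 0.27. Igfbp6, at 0.27, was still called against wild type. It lost the call under several settings, with 0.14 and an adjusted p of 0.0686 at an offset of 50. Esm1, a proteoglycan secreted by endothelial and other cells, was detected throughout, with 7.09, 7.14, 7.30, 7.43 and 7.52 in PMCA4b cells, against 6.70, 7.01, 6.97, 7.17 and 7.43 in wild-type cells. These groups overlapped, at a difference of 0.24 and an adjusted p of 0.089 (0.34 and 0.0172 without the fifth wild-type array). With the replicate number or the column set as a block, the same difference passed the threshold, at adjusted p-values of 0.00487 and 0.0308. By comparison, the knockout averaged 12.05.

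Detected genes that were low in the knockout also reached wild type. Mybl2, a transcription factor of dividing cells, read 10.27, 10.11, 10.20, 10.11 and 10.17 in PMCA4b cells, against 10.14, 10.26, 10.34, 10.28 and 10.14 in wild-type cells, with 8.50 ± 0.14 in the knockout (SD, n = 5). Sema3a, a secreted guidance protein, read 10.45, 10.83, 10.72, 10.86 and 10.92 in PMCA4b cells, against 10.72, 10.90, 10.88, 10.78 and 10.95 in wild-type cells, with a knockout mean of 8.99. Both genes overlapped between the groups. Rpp25, a subunit of ribonuclease P, averaged 9.14 in each group, and Rhox5, a homeobox gene of the X chromosome, 7.19 in PMCA4b cells and 7.14 in wild-type cells. Dennd3 and Tmod2 were not called, at -0.17 and -0.26 (adjusted p = 0.15 and 0.059), although leaving out the third PMCA4b array brought Dennd3 to -0.24 with an adjusted p of 0.037, and Tmod2 passed the threshold under several settings, with -0.31 and 0.0348 without the fifth PMCA4b array, -0.31 and 0.0379 without the second and -0.30 and 0.041 without the fourth wild-type array. Tnfrsf21, a death receptor, and Mxd3, a partner of Max, lay within 1.5-fold but were still called, at -0.43 and -0.32. In all, 47 of the 122 were still called.

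Crossing genes had left the knockout level and passed wild type. Tmem176b, a membrane protein of immune and other cells, read 10.82, 10.88, 10.90, 10.88 and 11.07 in PMCA4b cells, against 8.69, 8.92, 8.90, 9.23 and 8.92 in wild-type cells, and was 3.94-fold higher (adjusted p = 6e-15), while the knockout averaged 6.20. Its neighbour Tmem176a was 3.85-fold higher, and Tuft1, first known from tooth enamel, 2.50-fold higher. The virus receptor Cxadr, the GTPase gene Rragb and Sertad4 completed the 6 that crossed from low to high. In the other direction 34 crossed. Tnc, the matrix protein tenascin C, read 5.30, 5.15, 5.36, 5.35 and 5.32 in PMCA4b cells, against 6.50, 6.94, 7.06, 6.32 and 6.51 in wild-type cells, with a knockout mean of 9.33. Mfap5 averaged 5.23 in PMCA4b cells, where it was undetected, against 7.28 in wild-type cells and 11.22 in the knockout. Serpina3n, a protease inhibitor, was 2.08-fold lower, and Atp8b1, Lce1f, Adam23, Tfap2a and Rasl11b were called lower and undetected in PMCA4b cells, with detection on 1 to 5 wild-type arrays.

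Rgs16, which speeds the shut-off of G proteins, was undecided. It read 5.87, 6.02, 5.64, 5.83 and 6.22 in PMCA4b cells, against 6.81, 5.81, 6.30, 6.31 and 6.34 in wild-type cells, and 10.73 ± 0.090 in the knockout (SD, n = 5). The groups overlapped, and 0 of 5 PMCA4b arrays and 2 of 5 wild-type arrays detected it. The difference of -0.40 had an adjusted p of 0.0085 in limma and an exact two-sided permutation p of 0.0635. Within the first column set, with 2 arrays a group, the difference was -0.36 (adjusted p = 0.302), and within the second, also with 2, -0.57 (adjusted p = 0.00133). Within the third, with 1 PMCA4b and 1 wild-type array and so no spread in either group, the difference was -0.11. With vector alone Rgs16 averaged 8.43 for vector A and 7.06 for vector B. Of the 6 RGS genes measured, 0 were higher and 4 lower than in wild type, with a median of -0.59. That median was -0.07 with no filter on dim probes and -1.28 over the members detected on all arrays of PMCA4b or of wild-type cells. The others lower were Rgs3 and Rgs17, at -0.79 and -1.78, and Rgs12, undetected in PMCA4b cells and at least 2.82-fold lower. Rgs17 was also low in the knockout, at a mean of 6.49 against 9.02 in wild-type cells.

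Of 45 measured genes of the G1/S transition and DNA replication, 24 were higher and 6 lower than in wild type, with a median of 0.19, where the unmanipulated knockout had 6 higher, 30 lower and a median of -0.28. Ccne2, a cyclin that drives entry into S phase, was 2.82-fold higher, with 9.68 ± 0.19 in PMCA4b cells, against 8.18 ± 0.17 in wild-type cells (SD, n = 5). The cyclin-dependent kinase gene Cdk6 was detected on all PMCA4b arrays and on 0 wild-type arrays. Tyms, which makes thymidylate, and the cyclin gene Ccnd3 were lower, at -0.81 and -0.74. Named after their values were seen, Pcna, the sliding clamp of replication, and the helicase subunit Mcm6 were higher at 0.65 and 0.44, with knockout differences of -0.28 and -0.28. Of the list, 31 genes lay within 1.5-fold of wild type (57.5% over all genes).

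Of 27 measured G2/M and mitosis genes, 18 were lower than in wild type, 2 higher and 7 not called, with a median of -0.29. Of the list, 16 lay within 1.5-fold of wild type (57.5% over all genes), and the knockout had 25 lower, 0 higher and a median of -0.65. Cenpa, the histone variant of centromeres, read 13.06, 13.14, 13.12, 13.14 and 12.87 in PMCA4b cells, against 14.28, 14.18, 14.27, 14.41 and 14.09 in wild-type cells. It was 2.27-fold lower with no overlap (adjusted p = 2.3e-14), and the knockout averaged 13.66. Cdc20, which activates the anaphase-promoting complex, was 1.83-fold lower. Foxm1, a transcription factor of mitotic genes, and Kif2c, a microtubule-depolymerizing kinesin, were lower at -0.60 and -0.85. With vector A all 27 were lower than in wild type, at a median of -1.60, and with vector B 26 were lower, at a median of -1.08. Over all genes, 38.6% were lower and 39.4% higher with vector A, and 35.1% lower and 37% higher with vector B.

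Mitotic genes are known to be switched through the cell cycle genes homology region, a short element near their start that binds the DREAM complex. The letters TTTGAA were sought on both strands of the window from 250 bases before to 50 after each gene's start, in RefSeq promoters of GRCm38.p6. They occurred in 17 of the 23 list members with a promoter, and in 14 of the 16 of these that were lower. By comparison, 886 of 6299 measured genes (14.1%) and 17.9% of all 32851 windows held them. The stretches around the match are shown for the 2 genes with the largest fall, from base -50 relative to the start for Cenpa and from base -65 for Cdc20, with the match in capitals.
Cenpa, chr5:30666836-30666935, plus strand: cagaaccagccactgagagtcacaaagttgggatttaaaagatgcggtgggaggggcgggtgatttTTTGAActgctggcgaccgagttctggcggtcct
Cdc20, chr4:118437309-118437408, minus strand: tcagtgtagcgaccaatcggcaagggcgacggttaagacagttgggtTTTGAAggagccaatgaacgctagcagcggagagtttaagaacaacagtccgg
A match describes the letters and does not show that the element is used.

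Inhibitors of the cycle moved in opposite ways. Cdkn2a, which encodes p16 and p19ARF, read 5.80, 5.77, 6.43, 6.15 and 5.65 in PMCA4b cells, against 10.23, 10.38, 10.58, 10.25 and 10.39 in wild-type cells. It was undetected in PMCA4b cells, at least 14.7-fold lower, and averaged 10.13 in the knockout, 8.61 with vector A and 8.03 with vector B. A second Cdkn2a probe was also undetected in PMCA4b cells, against a mean of 10.26 in wild-type cells. Cdkn2b, the neighbouring gene for p15, read 5.10, 5.04, 4.87, 4.91 and 4.91 in PMCA4b cells, against 10.36, 10.33, 10.33, 10.49 and 10.38 in wild-type cells, and was at least 14.8-fold lower. The next measured gene on one side, Mtap, which salvages methionine, was detected on all arrays and differed by -0.26. On the other side Plaa differed by -0.61.

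Cdkn1a, which encodes p21, rose. It read 13.10, 13.04, 13.02, 12.97 and 13.01 in PMCA4b cells, against 10.74, 10.70, 10.95, 10.77 and 10.65 in wild-type cells, 4.82-fold higher (adjusted p = 2e-20), and it averaged 12.10 in the knockout. Mdm2, the ubiquitin ligase of p53, was 2.73-fold higher. Of 25 measured inhibitors and p53 targets, 12 were higher and 8 lower than in wild type, with a median of 0.10. In the unmanipulated knockout 11 were higher and 8 lower.

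**Figure D3:**
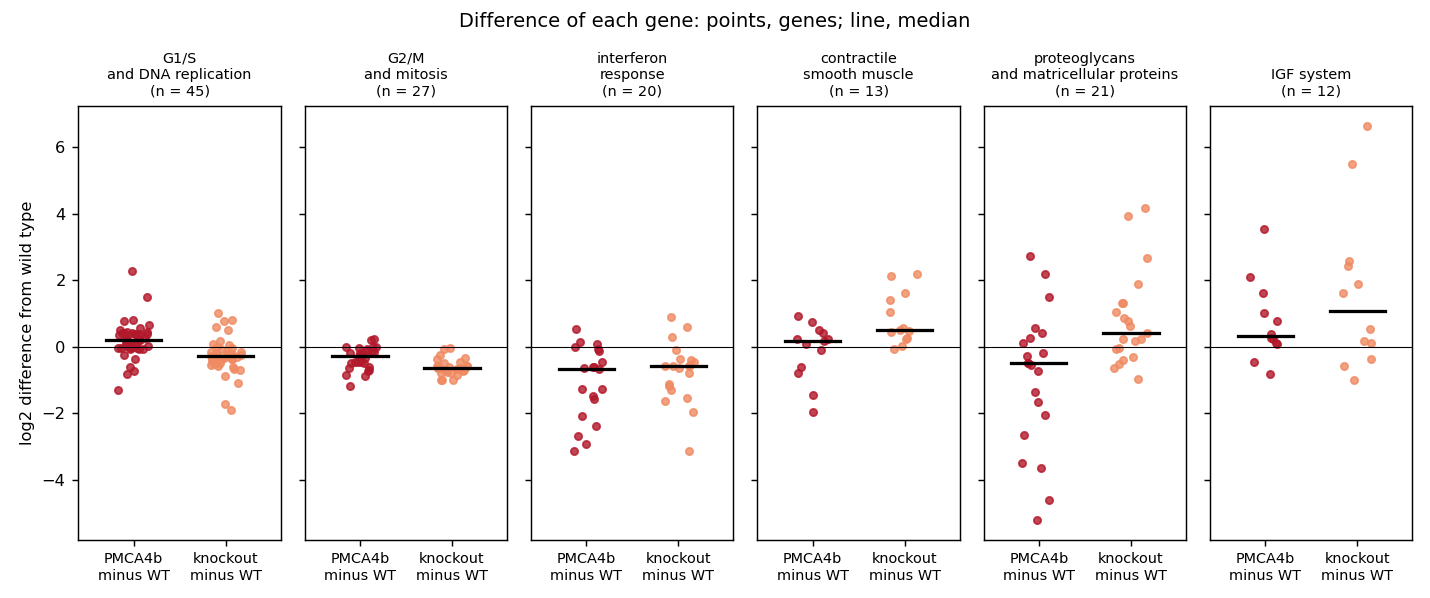
Log2 difference from wild type (vertical axis) of each measured gene of 6 lists, in PMCA4b cells and in unmanipulated knockout cells. Points are genes and lines medians. The G1/S median is 0.19 with PMCA4b and -0.28 in the knockout, the G2/M median -0.29 and -0.65, and the interferon medians -0.66 and -0.58.

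Calcium genes were divided in direction. Of 17 measured genes of calcium transport, 8 were higher and 7 lower, with a median of 0.07. The median was -0.0026 without the first PMCA4b array, -0.019 without the first wild-type array and -0.16 within the second column set. Atp2a3, a pump that loads calcium into the endoplasmic reticulum, was detected on all PMCA4b arrays at 8.37 ± 0.11 and on 0 wild-type arrays at 4.96 ± 0.080 (SD, n = 5), at least 3.90-fold higher. With vector A it averaged 8.46 and with vector B 7.80. Cacna2d1, an auxiliary subunit of voltage-gated calcium channels, was 3.99-fold higher. Its log2 difference from wild type was 1.99 with PMCA4b, 0.43 with vector A and 2.09 with vector B. Slc8b1, the sodium-calcium exchanger of mitochondria, was 1.48-fold higher. In the calcineurin and calmodulin list, 7 of 20 were higher and 9 lower. Rcan2 read 6.23, 6.61, 6.29, 5.99 and 5.95 in PMCA4b cells, against 11.74, 11.86, 11.73, 11.63 and 11.84 in wild-type cells, with a knockout mean of 10.20. The muscle transcription factor Mef2c, detected on 1 PMCA4b array, and the calcineurin regulator Rcan3 were lower, at -2.22 and -1.07, and Nfatc1, a transcription factor that calcineurin activates, was 2.31-fold higher.

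Contractile genes gave both directions within 1 list. Of 13 measured, 6 were higher and 4 lower than in wild type, with a median of 0.16, where the knockout had 11 higher, 0 lower and a median of 0.50. Acta2, smooth muscle actin, read 15.21, 15.05, 14.94, 15.17 and 15.02 in PMCA4b cells, against 14.58, 14.48, 14.61, 14.69 and 14.44 in wild-type cells. It was 1.43-fold higher with no overlap (adjusted p = 4.3e-09), the knockout averaged 15.96, and its 4 probes gave differences between 0.52 and 0.99. Tagln, an actin-binding protein, crossed and was detected on 4 PMCA4b arrays, with 6.73, 6.52, 6.70, 6.60 and 6.14 in PMCA4b cells, against 8.50, 8.68, 8.57, 8.70 and 8.07 in wild-type cells and a knockout mean of 10.11. Mustn1 crossed too, at -1.44. Vcl, vinculin, was 1.69-fold higher. Tpm2, a tropomyosin, was 1.71-fold lower on its brightest probe, while the probe with the largest spread gave 0.66, higher. Smtn, smoothelin, was 1.52-fold lower.

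Matrix genes moved in both directions. Of 22 measured genes for collagens and their enzymes, 11 were higher and 6 lower, with a median of 0.24, and in the knockout 14 were higher and 3 lower. Col7a1, the anchoring fibril collagen, was detected on all PMCA4b arrays and 4 wild-type arrays and was higher by 2.28. Loxl1, an enzyme that cross-links elastin, read 9.24, 9.26, 9.21, 9.23 and 9.14 in PMCA4b cells, against 13.46, 13.48, 13.54, 13.39 and 13.39 in wild-type cells, an 18.8-fold loss (adjusted p = 2.3e-27) with a knockout mean of 13.07. Its relative Loxl2 was 2.54-fold higher. Of 21 proteoglycan and matricellular genes, 14 were lower and 6 higher, with a median of -0.50, while the knockout had 13 higher, 5 lower and a median of 0.42. Thbs2 read 5.27, 5.74, 5.23, 5.59 and 5.18 in PMCA4b cells, against 10.70, 10.66, 10.65, 10.48 and 10.54 in wild-type cells, at least 17.4-fold lower. Fbln1, fibulin-1, and Ogn, osteoglycin, were lower by 11.4-fold and 12.4-fold, the first detected on 4 PMCA4b arrays. Among 18 matrix proteases and inhibitors, 7 were higher and 9 lower. Besides Mmp13, Mmp23 was at least 5.86-fold higher, Mmp3 was higher by 2.93 on the log2 scale and Mmp11 was at least 4.39-fold lower.

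**Figure D4:**
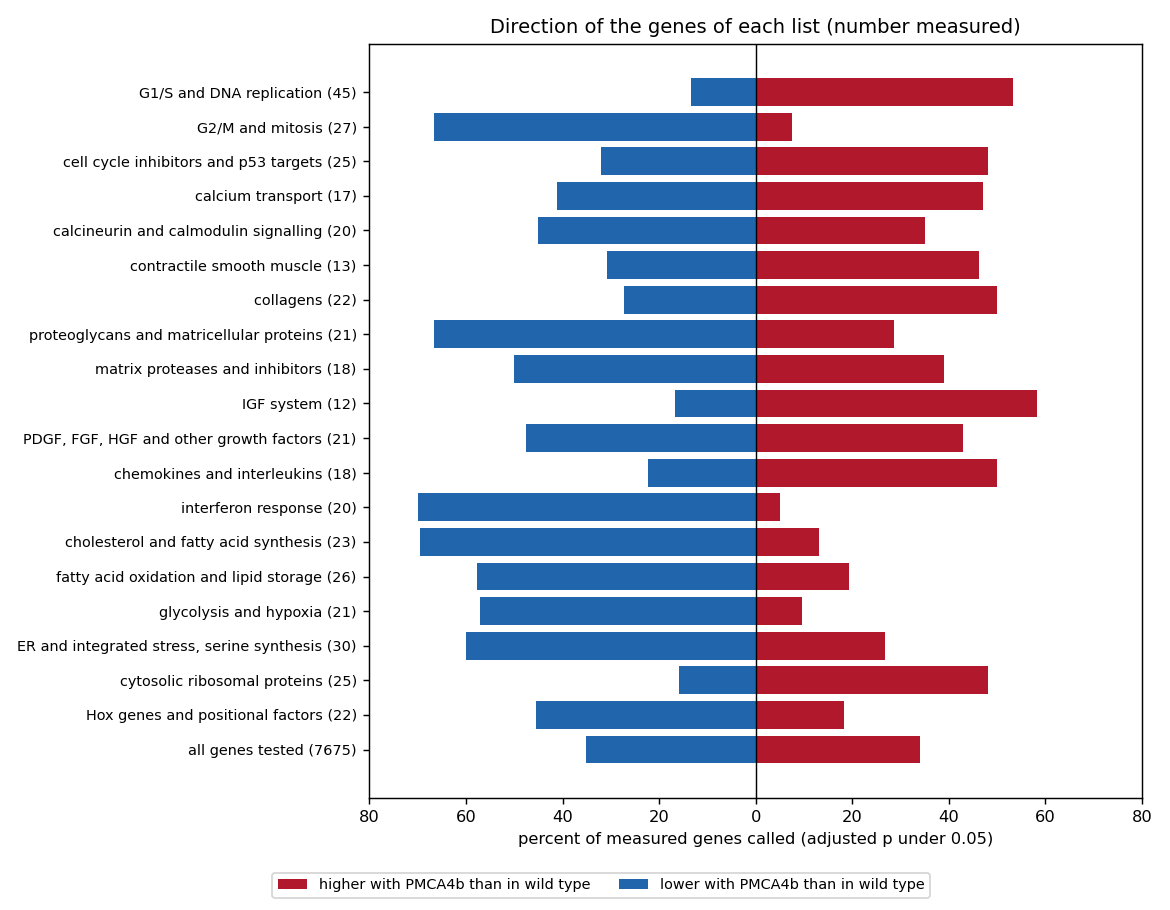
Percent of the measured genes of each list that were called higher (right, red) or lower (left, blue) in PMCA4b cells than in wild-type cells, with the number of genes measured in brackets. Over all 7675 genes, 34% were higher and 35.1% lower. In the interferon list 14 of 20 were lower and 1 higher, and in the G1/S list 24 of 45 were higher and 6 lower.

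The insulin-like growth factor system stayed partly different from wild type. Of 12 measured genes 7 were higher and 2 lower, with a median of 0.32, where the knockout median was 1.08. Igf1 read 10.04, 9.99, 10.04, 10.01 and 10.02 in PMCA4b cells, against 6.82, 6.22, 6.70, 6.55 and 6.08 in wild-type cells, with a knockout mean of 8.35 and detection on 3 of 5 wild-type arrays. Igfbp4 and Igfbp7, which bind IGFs, were 4.27-fold and 3.06-fold higher. Grb10, Igfbp3 and Igfbp6 were the 3 of the list that reached wild type, and Htra1, a protease that cuts IGF-binding proteins, was lower at -0.82.

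Growth factors and receptors showed 9 of 21 higher and 10 lower, where 34% of all genes were higher and 35.1% lower. Egfr, the EGF receptor, was 4.53-fold higher, at 10.45 ± 0.10 in PMCA4b cells, against 8.27 ± 0.13 in wild-type cells (SD, n = 5). Fgf10 crossed, with a mean of 5.49 in PMCA4b cells, where it was undetected, against 10.81 in the knockout and 8.96 in wild-type cells. Flt1, a VEGF receptor, read 11.22, 11.26, 11.39, 11.28 and 11.42 in PMCA4b cells, against 7.02, 7.01, 6.88, 6.67 and 6.80 in wild-type cells, and was 21.7-fold higher, beyond its knockout mean of 9.57. Of the Notch and Wnt list 8 of 18 were higher and 6 lower, near those shares. Its median was 0.15, but -0.29 over the members detected on all arrays of PMCA4b or of wild-type cells. Hes1, a target of Notch, was 4.48-fold higher, Sfrp1, a secreted Wnt antagonist, 8.44-fold lower and Wnt5a at least 5.06-fold lower. In the TGF-beta and BMP list 10 of 22 were higher and 7 lower, with Id1, a BMP target, and Fst, an activin antagonist, 3.48-fold and 3.31-fold higher and Tgfbr3 3.31-fold lower.

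Interferon-response genes were low. Of 20 measured, 14 were lower and 1 higher than in wild type, with a median of -0.66, and in the knockout 16 were lower and 3 higher, with a median of -0.58. With vector A 8 were lower and 8 higher, and with vector B 12 were lower and 4 higher. Usp18, which removes ISG15 from proteins, read 4.91, 5.18, 5.02, 5.07 and 5.15 in PMCA4b cells, against 7.79, 8.03, 7.98, 8.02 and 8.09 in wild-type cells, and was at least 2.82-fold lower. Igtp, an interferon-induced GTPase, read 5.44, 4.96, 5.22, 5.35 and 5.42 in PMCA4b cells, against 7.58, 7.43, 7.70, 7.74 and 7.76 in wild-type cells. Both were undetected in PMCA4b cells. Gbp2, a guanylate-binding protein, was 4.27-fold lower. Bst2, Gbp3, Gvin1, Igtp, Isg15, Oasl2 and Usp18 were the members that had been low in the knockout and stayed low. The MHC class I list was not low as a whole, with 1 of 6 measured genes higher, 2 lower and 3 not called. Tap2, a transporter of antigenic peptides, and B2m, the light chain of MHC class I, were lower at -2.21 and -0.76.

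The interferon-stimulated response element is a short site near the start of many interferon-induced genes. The letters GAAA followed, after any 2 bases, by GAAA again, on both strands of the same windows, occurred in 11 of 17 list members with a promoter and in 7 of the 11 that were lower, against 3.54% of measured genes and 3.44% of all windows. Igtp and Isg15 are shown, chosen by their values as the 2 with the largest fall among the members holding a match. The Isg15 stretch holds 3 overlapping matches. The stretches begin at base -79 and base -111 relative to the start.
Igtp, chr11:58199477-58199576, plus strand: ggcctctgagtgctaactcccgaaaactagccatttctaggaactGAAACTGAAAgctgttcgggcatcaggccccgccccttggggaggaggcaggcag
Isg15, chr4:156200830-156200929, minus strand: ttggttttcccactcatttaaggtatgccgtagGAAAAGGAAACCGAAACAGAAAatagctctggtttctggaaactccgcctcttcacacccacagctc
Isg15 read 6.53, 6.52, 6.37, 5.49 and 6.32 in PMCA4b cells, against 8.80, 8.91, 9.08, 8.82 and 8.96 in wild-type cells, a difference of -2.67, with detection on 1 PMCA4b array.

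Of 18 measured genes of the chemokine and interleukin list, 9 were higher and 4 lower than in wild type, with a median of 0.35. Ccl7, detected on 1 wild-type array, and Ccl9 were higher by 3.76 and 2.57, and Cx3cl1, the membrane-bound chemokine fractalkine, was 6.55-fold lower. Ccl7, Ccl9 and Cx3cl1 had moved the same way in the knockout.

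In the metabolic lists, called genes were mostly lower. Of 23 measured genes of cholesterol and fatty acid synthesis, 16 were lower and 3 higher, with a median of -0.29, where the knockout had 11 higher and 4 lower. Elovl6, which elongates fatty acids, and the mevalonate pathway enzymes Mvd and Fdps were lower at -1.15, -0.97 and -0.94, and Cyp51 was 3.69-fold higher. In fatty acid oxidation and lipid storage 15 of 26 were lower and 5 higher. Lpl, lipoprotein lipase, and Plin4, a lipid droplet coat protein, went undetected with PMCA4b, the first at least 1.96-fold and the second at least 2.49-fold lower. Glycolysis and hypoxia genes were lower in 12 of 21 and higher in 2, with the oxygen-sensing hydroxylase Egln3 at least 2.15-fold and the glycolytic enzyme Pfkl 2.35-fold lower. In the list of ER and integrated stress and serine synthesis 18 of 30 were lower and 8 higher, with Pdia4 and Xbp1, of protein folding in the ER, at -1.15 and -0.96 and Asns, asparagine synthetase, at 0.91. Of 25 cytosolic ribosomal protein genes 12 were higher and 4 lower, and 24 lay within 1.5-fold of wild type.

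Positional factors kept part of the knockout pattern. Of 22 measured, 4 were higher and 10 lower than in wild type. Hoxa7 was undetected in wild-type cells and averaged 9.37 ± 0.088 in PMCA4b cells (SD, n = 5) and 8.61 in the knockout, at least 7.76-fold higher with PMCA4b. Dlx1, Foxc1, Foxf1, Hoxa7, Tbx3 and Twist2 stayed, and Dlx2 reached wild type. Hoxa5 was 3.08-fold lower with PMCA4b, with a mean of 11.58 in the knockout against 11.69 in wild-type cells.

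A further set of genes differed from wild type after the return but not in the unmanipulated knockout. These were called at least 2-fold in PMCA4b cells while the knockout's interval lay within 1.5-fold of wild type (70.9% of all genes), and they numbered 323 of 7675 (4.21%), 142 higher and 181 lower. The 6 largest log2 gains were those of Upk1b, Ptprd, Gsta1, Ffar4, Ctsw and Tril, none of them detected in wild-type cells. Gsta1, a glutathione transferase, Ffar4, a fatty acid receptor, and Ctsw, a cathepsin, were detected on all PMCA4b arrays and on 0 wild-type or knockout arrays. Cdkn2a, Loxl1, Ogn, the guidance protein Sema3f, the sorting receptor Sorcs1 and Sfrp1 had the 6 largest log2 losses, with Cdkn2a and Sorcs1 undetected in PMCA4b cells. Vector A gave at least a 2-fold call in the same direction for 99 of the 323, vector B for 115 and both for 81. Over all genes, at least 2-fold calls in either direction made up 20.8% with vector A and 15.2% with vector B. In 49 of the 323 both vector groups lay within 1.5-fold of wild type.

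The epithelial keratins Krt14 and Krt19 were among the genes gained. Krt14 read 8.10, 8.28, 8.02, 8.17 and 8.28 in PMCA4b cells, against 5.26, 5.30, 5.43, 5.24 and 5.14 in wild-type cells, at least 3.39-fold higher. Krt19 and the desmosomal protein Pkp1 were at least 2.47-fold and 7.03-fold higher. All 3 were undetected in wild-type cells. Krt14 was undetected in both vector groups, while Krt19 averaged 7.71 in PMCA4b cells, 7.40 with vector A and 7.41 with vector B. The other keratins on the marker list, Krt5, Krt8 and Krt18, were undetected in PMCA4b cells, and Krt8 was detected on 2 wild-type arrays. Of the 5 measured genes of the epithelial and keratinocyte list 4 were higher and 0 lower, with a median of 2.86. Krt14 was detected in PMCA4b cells alone, so that it passed the filter on dim probes only through the group where it was high. With no filter on dim probes the median was -0.01, so the count does not describe the list as a whole. The summed intensity of 6 epithelial markers on the array was 641 to 749 in PMCA4b cells and 260 to 289 in wild-type cells.

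Genes that lie next to each other in the RefSeq annotation (GRCm38.p6) were followed along the chromosomes, a choice made after values were seen and described with no test. The longest runs of measured neighbours called in 1 direction held 17 genes, from H2bc14 to H2bc9 on chromosome 13, all histone genes, whose near-identical copies a probe may not separate, and higher at a median of 0.32, and from Lrrc8c to Fgfrl1 on chromosome 5, lower at a median of -0.76. Only the longest run of each chromosome and direction was kept. Among those of 10 or more genes, the run with the largest median went from Cdk6 to Sri, the first 13 measured genes of chromosome 5. All 13 were higher with PMCA4b (34% over all genes), with no overlap between the arrays, by 0.95 to 2.40 and at a median of 1.88. Sri, the calcium-binding protein sorcin, read 13.65, 13.63, 13.66, 13.67 and 13.69 in PMCA4b cells, against 11.65, 11.58, 11.75, 11.71 and 11.68 in wild-type cells. Cdk6, the kinase named above, read 7.94, 7.79, 8.11, 8.01 and 8.02 in PMCA4b cells, against 6.0, 5.62, 5.59, 5.74 and 5.54 in wild-type cells. The sterol enzyme Cyp51, Akap9, which anchors protein kinase A, the vascular gene Krit1 and the metalloreductase genes Steap1 and Steap2 lie in the run, at 1.88, 1.84, 2.16, 2.40 and 1.64. Over the same 13 genes the median difference from wild type was -0.04 in the unmanipulated knockout and -0.05 with vector A, but 1.40 with vector B, where all 13 were higher. Beyond the run Adam22 was undetected in PMCA4b cells and at least 1.30-fold lower, Dbf4 and Abcb1b, a drug efflux pump, higher at 1.47 and 3.26, and Sema3a, named above, not called.

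**Figure D5:**
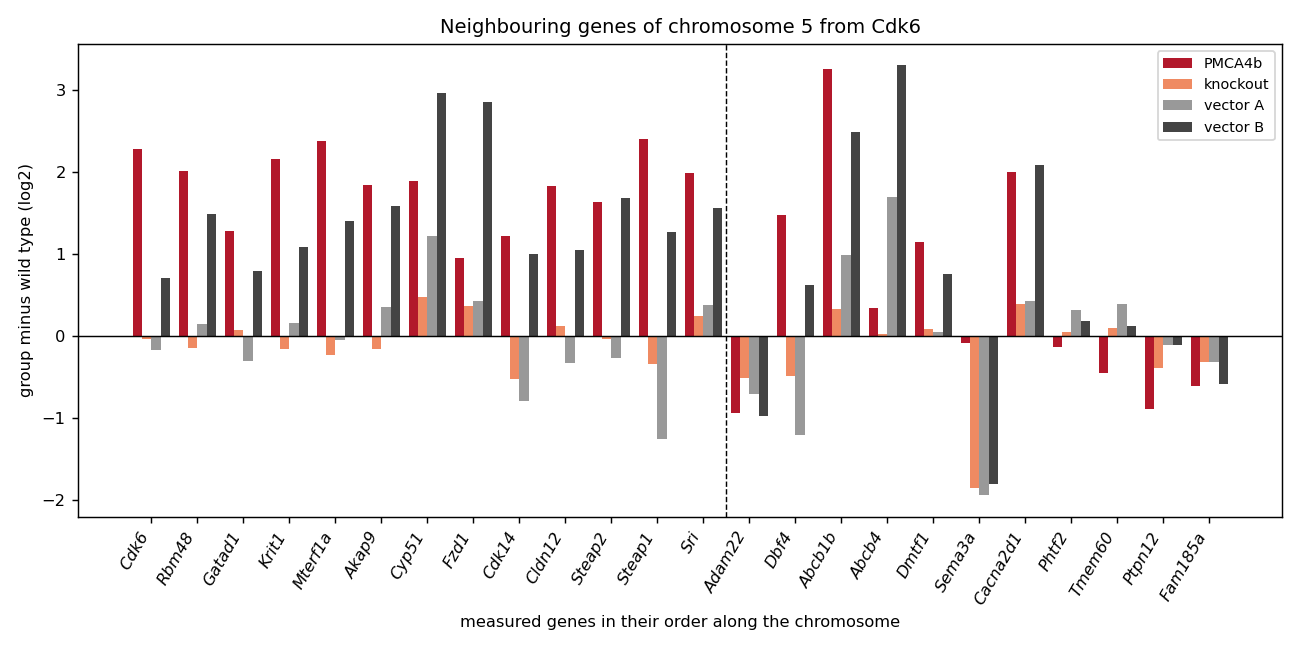
Log2 difference from wild type (vertical axis) of 24 measured genes in their order along chromosome 5 (horizontal axis), in PMCA4b, unmanipulated knockout, vector A and vector B cells, each bar a mean difference. Left of the dashed line, the 13 genes from Cdk6 to Sri are all higher with PMCA4b and with vector B, with medians of 1.88 and 1.40, while the knockout and vector A medians are -0.04 and -0.05.

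Whole chromosomes also had unequal medians with PMCA4b. Chromosome 3 had a median difference of -0.34, with 228 of 371 genes lower and 47 higher, and chromosome 8 of -0.28, with 245 of 412 lower and 59 higher. Chromosome 16 stood at 0.30, with 138 of 236 higher and 39 lower, chromosome 14 at 0.26 and chromosome 15 at 0.24. In the unmanipulated knockout the same 5 chromosomes had medians of -0.13, -0.12, 0.03, -0.06 and 0.05. With vector A they were -0.75, -0.10, 0.14, 0.13 and 0.02, and with vector B -0.34, -0.12, 0.11, 0.07 and 0.21. Chromosome 12 had 0.12 with PMCA4b, 0.36 in the knockout, 0.50 with vector A and 0.43 with vector B. Their part in the gene lists was not tested.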

How the data were processed

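RNA of 24 arrays was analysed, 5 of PMCA4b and 5 of wild-type cells among them. The deposited table holds the probe intensity and the detection p-value of each array, not normalized per the file headers. A second deposited table holds the authors' log2 values, with a normalization that no source used here states. Groups came from the sample titles. Members and gene lists were chosen with earlier results of these data known. Intensities were background-corrected, quantile-normalized and logged by the neqc function (offset 16; limma 3.58.1, R 4.3.3). The filter kept 11139 of 25697 probes, those detected (p under 0.01) on 4 arrays or more, and a gene was read from its named probe with the highest mean. One limma model with 5 group means was fitted to all 24 arrays (19 residual degrees of freedom), with Benjamini-Hochberg adjustment over 7675 genes. The number of arrays limits the precision. Of 36 gene lists, up to 4 genes each with the smallest adjusted p are named, besides the pumps, Rgs16, Cdkn2a, Cdkn2b, the 10 largest differences each way, the 8 largest knockout differences each way in each class and the 6 largest each way of the genes that differed after the return alone. Figures were drawn with matplotlib and Python. In 28 genes, called probes disagreed in direction. Alternatives covered background offset, scaling, dim-probe filter, probe choice, variance model, arrays fitted, blocks, margins, the authors' log2 values and each array left out. Same-numbered PMCA4b and wild-type arrays deviated together at correlations of 0.076, 0.082, 0.131, 0.073 and 0.475, not all over 0.1, so the numbers were not taken as pairs. Each PMCA4b array nevertheless correlated best with the wild-type array of its own number, and counts with the number as a block are given below.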

Additional observations from a re-analysis of the deposited data

Results flagged for a closer look

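Among 298 sets of 5 arrays for the named genes, 11 had 1 array far from the other 4 by Dixon's criterion, which chance gives in about 1 of 20 sets. In PMCA4b cells Egfl7 read 9.358 on replicate 1, against 9.263 or less on the others. Rcan3 read 9.788 on replicate 3, against 9.649 or less. Hspb7 read 7.475 and Loxl2 8.006 on replicate 4, against at least 7.733 and 8.237. Pfkp read 10.18 on replicate 5, against at least 10.37. In wild-type cells Ccl9 read 7.354 on replicate 1, against 7.24 or less, and Gbp2 read 8.754 on replicate 3, against at least 8.897. On replicate 4, Itga3 read 9.342 and Mustn1 8.159, against at least 9.707 and 8.351. On replicate 5, Fgf10 read 8.714 and Serpina3n 7.583, against at least 8.979 and 7.866.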

How the results depend on the processing

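Of 246 recomputed counts, 227 stayed within 1.5 times the reported value. Undecided genes numbered 30 with an offset of 50. They numbered 26 where genes had to be detected on all arrays of PMCA4b or wild-type cells, with 62 then reaching wild type. That filter drops probes undetected in both groups, and 50 of the 122 genes that reached wild type were read from such probes. Within the first 2 column sets 86 and 86 were undecided. Within the third set, which holds 1 array a group, the called genes numbered 3510, those higher 1653, those that reached wild type 63, undecided 102 and different after the return alone 189, with fewer arrays compared. A narrower margin than 1.5-fold gave 43 that reached wild type and 114 different after the return alone, and a margin of 2-fold gave 202 that reached it and 29 undecided. Knockout-different genes at 1.5-fold numbered 1259, of which 592 stayed, 404 reached wild type, 91 crossed and 172 were undecided. Leaving out each array in turn gave 5140 to 5209 called genes, 2528 to 2572 higher, 2608 to 2660 lower, 905 to 923 at least 2-fold, 499 to 517 knockout-different genes, 296 to 308 that stayed, 112 to 122 that reached wild type, 38 to 41 that crossed, 44 to 55 undecided and 306 to 327 different after the return alone. With the replicate number as a block, 5401 genes were called, 302 stayed, 120 reached wild type, 40 crossed and 48 were undecided, and Esm1 and Tmod2 passed the threshold (adjusted p = 0.00487 and 0.031); each PMCA4b array correlated best with the wild-type array of its own number. Of 828 recomputed list medians, 773 moved by less than the spread between replicates, 55 moved further and 21 had the opposite sign. With no filter on dim probes, which adds undetected members, the median was -0.22 for interferon, -0.14 for G2/M, -0.20 for proteoglycan, 0.10 for chemokine and -0.016 for inhibitor genes. Over members detected on all arrays of PMCA4b or wild-type cells it was -0.96 for interferon, 0.58 for chemokine and 1.02 for IGF genes (0.20 with an offset of 50), and within the second column set 0.10 for collagens. Of 4371 recomputed differences of named genes, 4324 kept direction and side of the threshold. One turned round, Tpm2, at 0.6596 on the probe with the largest spread (-0.7751 reported), and the cause was not tested. Within the third set Atp2b4 stood at -0.67, from 1 PMCA4b and 1 wild-type array. The undetected state of 50 genes that reached wild type limits what their equality shows.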
